A study of Mus musculus with 9 samples.

Results

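Protein-coding genes of mouse chromosome 6 were described on both sides of a division near 100 Mb, in V6.5 cells, an established male hybrid line of embryonic stem cells. Of 52550 rows in the count table, 1094 were protein-coding rows on chromosome 6, and 382 of these were members: 229 proximal genes, nearer the centromere, and 153 distal genes, nearer the other end. A proximal gene starts at or before base 99692679 (the start of Gpr27) and a distal gene at or after base 100228565 (the start of Rybp) in the mm10 build. Members were chosen by position and selected on a mean of at least 5 CPM, counts per 1000000 counts of a library, over the 9 libraries. Of 650 proximal rows, 252 reached that level and 23 of them were left out by name. Of 443 distal rows, 168 reached it and 15 were left out by name, the left-out genes being Nanog, Dppa3, Ccnd2 and similar genes together with families such as Zfp, Rpl and Psm. Prok2, the 1 row between the limits, had at most 2 counts in any library. No count in any library was found for 189 proximal and 143 distal rows.

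The labels name 4 wild-type libraries (WT) and 5 labelled as a double knockout of KLF2 and KLF4 (DKO). KLF2 and KLF4 are zinc-finger transcription factors of the naive pluripotent state. All cells grew in Knockout DMEM with 15% FBS, penicillin and streptomycin, L-glutamine and non-essential amino acids, with Lif and 2i, a pair of compounds that block the kinases GSK and MEK. How many DKO clones were used, and whether replicates were separate cultures, is not in the labels, so that the spread between libraries may be technical.

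The position of the division was itself chosen by the fold changes between these same libraries. Every difference between DKO and WT given for the members is therefore a description, and nothing is tested by it. In the same way, "higher", "rose", "lower" and "fell" are used of a gene only where its own adjusted p was under 0.05 in edgeR's quasi-likelihood fit over all 11893 genes tested, and for members these calls only sort the genes. All 382 members were among the genes tested. Each fold change is a log2 ratio, DKO to WT, given ± its standard error (SE), and CPM values are scaled by TMM library sizes. In bulk RNA, fewer cells of a type and less RNA per cell cannot be told apart. RNA counts give neither DNA copy number nor the parental allele.

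Library totals ran from 6035642 to 7098530 counts, and 3 counts in 1 library correspond to 0.423 to 0.497 CPM. For Klf2 the WT libraries held 3042, 3064, 3048 and 3297 counts and the DKO libraries 3970, 3822, 3750, 3750 and 4044, which is 0.42 ± 0.04 higher on the log2 scale (edgeR adjusted p = 6.21e-10). Klf4 was at 848 ± 49.1 CPM in WT (SD, n = 4) and 1595 ± 140.0 CPM in DKO (SD, n = 5). Both targeted genes thus went against the label, although counts near the 3′ end of a gene would not show a deletion elsewhere in it, and the libraries are called DKO below only because they are labelled so. The Y-linked gene Ddx3y had 157 to 199 counts in the WT libraries and 2 to 9 in the DKO libraries. The 10 markers of pluripotent stem cells summed to 2820 to 2931 CPM in WT and 3732 to 3982 CPM in DKO, with 6 of the 10 higher and 3 lower. The 12 fibroblast markers, which would show feeder cells, summed to 16.9 to 19.7 and 7.06 to 10.7 CPM, with Lum at 0 in every library, 2 abundant enough to be tested and 1 of these lower. The 5 neural markers summed to 120 to 142 CPM in WT and 53.9 to 84.0 CPM in DKO, with 3 of 4 tested lower, and the 5 mesoderm markers to 19.0 to 24.98 and 3.38 to 6.89 CPM, with 3 of 3 lower. The 6 trophectoderm markers summed to 33.1 to 37.8 and 9.42 to 19.5 CPM (1 of 2 tested lower), and the 7 of primitive endoderm to 4.70 to 7.93 and 4.596 to 6.13 CPM (1 higher and 1 lower). The part of these differences in the values of chromosome 6 was not tested.

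Genes on 1 chromosome arm share a DNA molecule but not, in general, a promoter or a pathway. Mouse chromosomes are telocentric, so that the whole of chromosome 6 is 1 long arm, and it holds genes of many unrelated functions. Proximally lie Ezh2, which encodes the histone methyltransferase of Polycomb repressive complex 2, the kinase gene Braf, the hexokinase gene Hk2 and the HoxA cluster of body-axis homeobox genes. The distal stretch holds the Polycomb genes Rybp and Phc1, the lactate dehydrogenase gene Ldhb, the mitotic factor Foxm1 and the pluripotency cluster around Nanog and Gdf3.

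Promoters of 6 members are shown so that the DNA on both sides of the division can be read directly. They are the 250 bases before the RefSeq start (GRCm38.p6 table), for genes whose listed start was borne out by the transcript that follows it. The first 4 are the nearest such genes on each side that hold the letters GGGNGTGG on either strand, a core that KLF factors bind and SP factors bind in similar form. The other 2 are the largest fall among such proximal members and the largest rise among such distal members. Capitals mark the letters GGGNGTGG or their reverse complement, and each sequence runs 5′ to 3′ in the direction of its gene.
Txnrd3, chr6:89643738-89643987, plus strand: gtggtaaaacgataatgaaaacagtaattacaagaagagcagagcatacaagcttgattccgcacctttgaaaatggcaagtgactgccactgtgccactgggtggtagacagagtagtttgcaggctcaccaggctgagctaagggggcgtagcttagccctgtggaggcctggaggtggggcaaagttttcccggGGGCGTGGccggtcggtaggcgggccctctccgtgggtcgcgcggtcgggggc
Zxdc, chr6:90369244-90369493, plus strand: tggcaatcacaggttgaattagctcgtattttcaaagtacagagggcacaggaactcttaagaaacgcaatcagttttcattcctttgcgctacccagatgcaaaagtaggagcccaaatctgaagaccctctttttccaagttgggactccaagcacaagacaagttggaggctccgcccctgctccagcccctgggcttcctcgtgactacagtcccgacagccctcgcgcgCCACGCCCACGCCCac
Edem1, chr6:108828391-108828640, plus strand: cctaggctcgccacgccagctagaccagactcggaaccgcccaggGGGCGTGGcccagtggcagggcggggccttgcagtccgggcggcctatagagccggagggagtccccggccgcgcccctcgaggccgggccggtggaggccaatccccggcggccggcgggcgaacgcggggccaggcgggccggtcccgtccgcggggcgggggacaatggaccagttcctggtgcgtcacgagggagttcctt
Erc1, chr6:119848151-119848400, minus strand: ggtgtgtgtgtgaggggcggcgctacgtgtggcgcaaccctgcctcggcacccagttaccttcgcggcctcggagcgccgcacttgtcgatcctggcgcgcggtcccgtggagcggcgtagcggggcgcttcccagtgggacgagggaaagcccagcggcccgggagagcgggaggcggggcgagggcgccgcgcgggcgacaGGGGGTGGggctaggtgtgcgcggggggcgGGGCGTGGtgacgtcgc
Impdh1, chr6:29216365-29216614, minus strand: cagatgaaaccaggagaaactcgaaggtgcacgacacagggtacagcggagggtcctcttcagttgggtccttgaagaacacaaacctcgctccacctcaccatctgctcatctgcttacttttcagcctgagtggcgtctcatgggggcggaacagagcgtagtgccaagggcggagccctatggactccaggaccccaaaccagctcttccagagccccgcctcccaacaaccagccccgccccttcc
Ldhb, chr6:142507958-142508207, minus strand: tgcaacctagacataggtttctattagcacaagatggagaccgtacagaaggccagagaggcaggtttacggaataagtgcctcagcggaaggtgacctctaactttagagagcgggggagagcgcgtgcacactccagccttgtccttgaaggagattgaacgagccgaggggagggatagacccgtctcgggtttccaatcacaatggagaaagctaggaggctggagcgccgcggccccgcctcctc

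The promoter of Zxdc holds 2 overlapping matches, that of Erc1 holds 2, and those of Txnrd3 and Edem1 hold 1 each. Txnrd3, encoding a thioredoxin reductase, was lower (-0.38 ± 0.13), whereas the zinc-finger gene Zxdc gave 0.01 ± 0.11 and did not pass. On the distal side Edem1, which acts in the disposal of misfolded glycoproteins, was higher (0.36 ± 0.09), as was the scaffold gene Erc1 (0.31 ± 0.06). Neither Impdh1, of guanine nucleotide synthesis (-0.84 ± 0.09), nor Ldhb (3.001 ± 0.16) holds the letters in the window shown. Over the 250 bases before the start, searched on both strands, the letters stand in 39 of 202 proximal promoters (19.3%), against 15.9% of all 32851 promoters listed. Among the other protein-coding genes at or above 5 CPM, on chromosomes other than 6, 8 and Y, the share was 21.4%. The median log2 fold change was -0.19 for proximal members with the letters and -0.19 for those without. Fewer than 80% of distal members had a window, and no share is given for them. A match is a string of letters and not a shown binding site.

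Distal genes were at higher levels in every DKO library than in any WT library when summarised by their median, and proximal genes at lower levels. For each library, every member's log2(CPM + 1) was taken relative to the gene's mean over the WT libraries (for a WT library, over the other 3). The distal median was -0.023, 0.011, 0.018 and 0.013 over the WT libraries, 1 to 4, against 0.367, 0.336, 0.328, 0.359 and 0.354 over the DKO libraries, 1 to 5. The proximal median was 0.011, 0.006, 0.009 and -0.014 in WT and -0.192, -0.196, -0.177, -0.211 and -0.212 in DKO. The distal minus proximal difference was 0.002 ± 0.026 in WT (SD, n = 4) and 0.546 ± 0.027 in DKO (SD, n = 5). Between DKO libraries this difference varied only from 0.505 in DKO 3 to 0.570 in DKO 4. Counted by gene, 71, 81, 83 and 85 of the 153 distal members lay above the WT mean over the WT libraries, against 130, 131, 135, 128 and 130 over the DKO libraries. Of the 229 proximal members, 107 to 123 did so in a WT library and 60 to 73 in a DKO library.

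**Figure D1:**
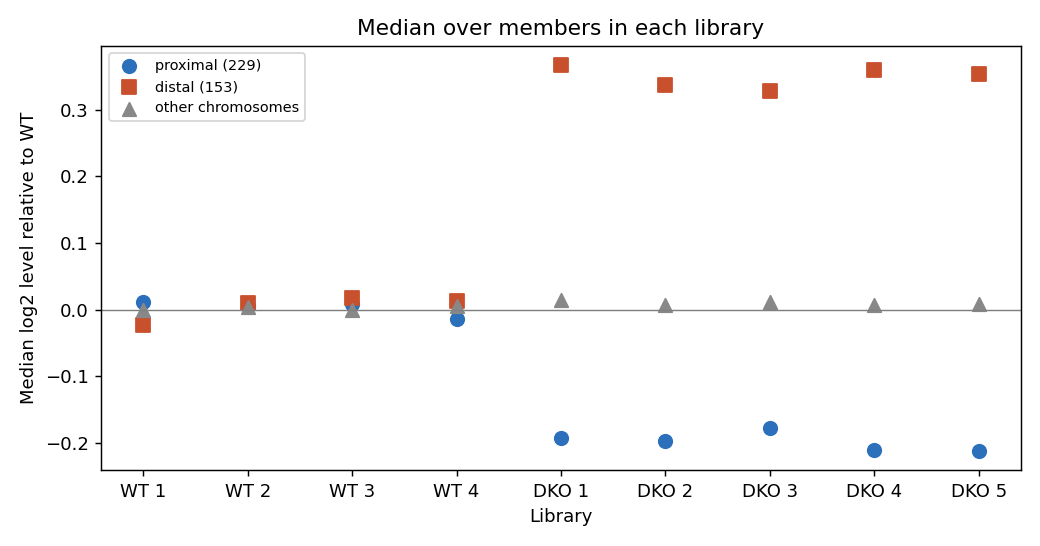
Median over members of log2(CPM + 1) relative to the WT mean, on the y axis, for each of the 9 libraries on the x axis, with 1 point per library for proximal members, distal members and the other protein-coding genes. The 5 DKO libraries lie between 0.328 and 0.367 for distal and between -0.212 and -0.177 for proximal members, while the other genes are at most 0.015 in any of the 9 libraries.

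Both stretches also changed their share of the RNA. Distal members summed to 15772 ± 153 CPM in WT and 19285 ± 105 CPM in DKO, and proximal members to 30083 ± 344 and 25579 ± 328 CPM (SD, n = 4 and 5). The ratio of distal to proximal sums was 0.516 to 0.537 in WT and 0.737 to 0.770 in DKO. Serbp1, which encodes an RNA-binding protein, alone made up 24.3% of the proximal sum in WT. Without it the ratio was 0.681 to 0.708 in WT and 0.963 to 0.9999 in DKO.

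Among distal members 112 of 153 were higher and 10 lower in DKO, while 31 did not pass. Among proximal members 30 of 229 were higher, 117 lower, and 82 did not pass. Over all genes tested 23.9% were higher and 24.0% lower, 47.8% in all, and since the division was placed with these fold changes nothing is read from the members' shares beside them. The distal median log2 fold change was 0.35, or 27.3% higher, with quartiles at 0.20 and 0.57. For proximal genes it was -0.20, or 12.7% lower, with quartiles at -0.41 and 0.08. Over all genes tested it was 0.008, and over the 8258 other protein-coding genes at the same level 0.008 as well. The 5 DKO libraries all lay above the 4 WT libraries for 92 distal and 24 proximal members, and all below for 8 distal and 93 proximal members, where 18.4% and 19.1% of all genes tested did so.

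**Figure D2:**
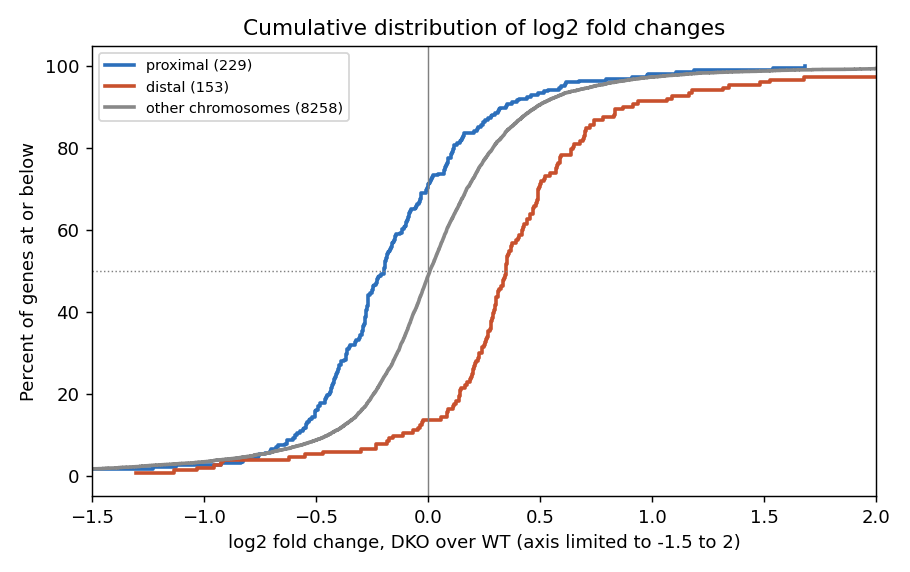
Cumulative share of genes, in percent on the y axis, at or below each log2 fold change of DKO over WT on the x axis, for proximal members, distal members and the other protein-coding genes at or above 5 CPM. The distal curve is shifted to the right along most of its length, crossing 50% at 0.35 where the proximal curve crosses it at -0.20.

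Most members moved by a modest amount. The log2 fold change lay between 0 and 1 for 119 of the 153 distal members, and its quartiles stood 0.37 apart, against 0.41 for the other protein-coding genes and 0.48 for proximal members. A change of 2-fold or more in the higher direction was found in 13 distal and 4 proximal members, and in the lower direction in 3 and 6. Over all genes tested 4.14% were at least 2-fold higher and 6.05% at least 2-fold lower. In the distal stretch 132 members (86.3%) had a positive log2 fold change, as had 67 proximal members (29.3%).

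Along the chromosome the distal medians varied less than the proximal ones. In windows of 10 Mb, the 5 distal medians were 0.34 for 100 to 110 Mb, 0.31 for 110 to 120 Mb, 0.33 for 120 to 130 Mb, 0.35 for 130 to 140 Mb and 0.48 for 140 to 150 Mb. The first of these windows holds only 10 members. Proximal medians ran from -0.42 at 40 to 50 Mb, with 14 members, to 0.07 at 60 to 70 Mb, with 6. Joined into wider stretches, the proximal median was -0.04 for the 20 members before 20 Mb, -0.17 for 64 members from 20 to 50 Mb, 0.04 for 33 members from 50 to 70 Mb, and -0.28 for 112 members from 70 Mb to the division. The stretch from 50 to 70 Mb had 10 members higher and 11 lower, while that from 70 Mb on had 8 higher and 68 lower. The edges of these stretches were chosen after the windows had been seen.

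**Figure D3:**
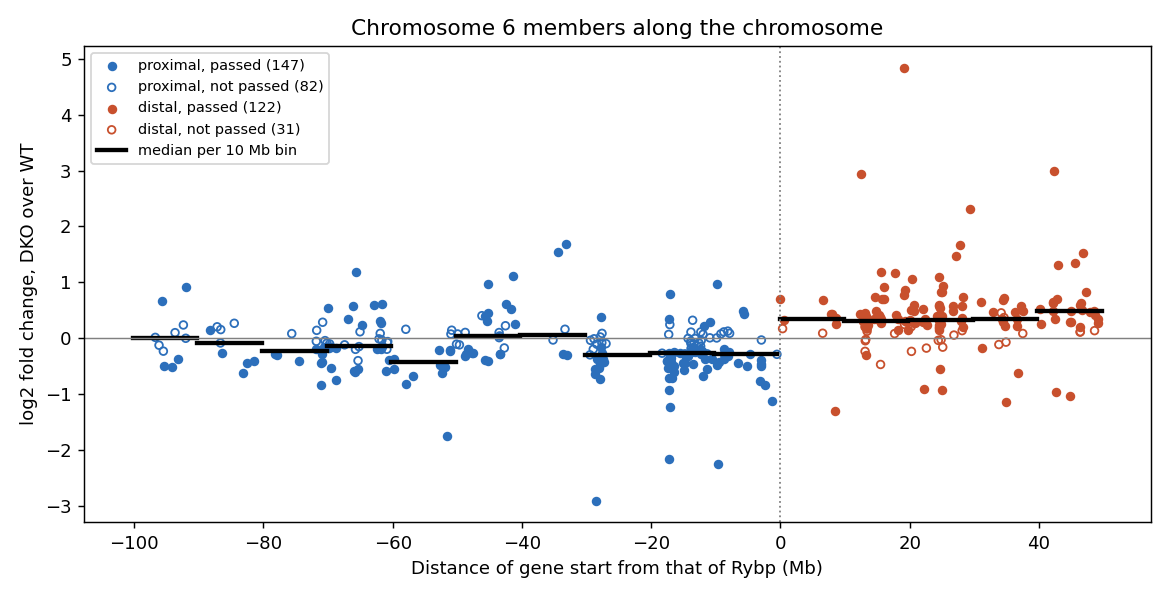
Log2 fold change of DKO over WT on the y axis against the distance of each gene's start from that of Rybp in Mb on the x axis, with 1 point per member (filled where it passed, open where it did not) and black bars for the median of each 10 Mb window. Window medians lie between -0.42 and 0.07 before the division and between 0.31 and 0.48 after it.

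The genes nearest the division stand 536 kb apart, start to start. Foxp1, a forkhead transcription factor gene on the proximal side, was at 15.3, 16.2, 14.1 and 11.8 CPM in WT 1 to 4 and 8.07, 4.86, 6.57, 6.24 and 6.91 CPM in DKO 1 to 5, and fell (-1.13 ± 0.16). Mitf, encoding a basic helix-loop-helix factor best known from pigment cells, was at 53.3, 65.9, 62.1 and 69.02 CPM in WT and 30.4, 36.2, 31.5, 40.5 and 37.8 CPM in DKO (-0.83 ± 0.09). In neither gene did the groups overlap, every DKO value being the lower. Gpr27, an orphan receptor gene and the last proximal member, gave 6.58, 5.95, 6.91 and 5.40 CPM in WT and 5.23, 5.64, 5.91, 3.71 and 4.87 CPM in DKO, a fold change of -0.29 ± 0.19 that did not pass. Of the other proximal genes nearest the division, Arl6ip5 was lower (-0.46 ± 0.12) and Frmd4b did not pass (-0.03 ± 0.11).

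Rybp, the first distal member, encodes a subunit of Polycomb repressive complex 1. It was at 7.33, 7.62, 8.37 and 7.81 CPM in WT and 12.1, 11.6, 13.3, 12.5 and 13.7 CPM in DKO, and rose (0.70 ± 0.14), with every DKO library above every WT library. Ppp4r2, encoding a regulatory subunit of protein phosphatase 4, was at 69.4, 66.6, 77.4 and 69.3 CPM in WT and 84.2, 83.7, 91.6, 88.9 and 95.2 CPM in DKO (0.33 ± 0.07). Crbn, the substrate receptor of a cullin ubiquitin ligase, was at 28.4, 21.2, 24.4 and 21.9 CPM in WT and 37.98, 38.1, 36.1, 38.3 and 41.3 CPM in DKO (0.68 ± 0.09). Both were higher, whereas Shq1, of H/ACA ribonucleoprotein assembly (0.17 ± 0.08), and Trnt1, which adds the CCA end to transfer RNAs (0.09 ± 0.09), did not pass. The limits at Gpr27 and Rybp come from the definition of members, and the genes here do not place a border between them. Gpr27 did not pass, so that the last proximal gene called lower was Foxp1. Prok2, between the limits, was almost without counts.

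The most abundant proximal genes were lower by small amounts or did not pass. Serbp1 was at 7289, 7399.5, 7408 and 7161 CPM in WT and 6132, 5997, 6126, 5784 and 5798 CPM in DKO (-0.29 ± 0.04), all DKO values being below all WT values. Cct7, encoding a subunit of the TRiC chaperonin, went from 2151 ± 48.7 to 1742 ± 80.98 CPM (-0.30 ± 0.04), and Sec61a1, encoding the channel of the endoplasmic reticulum translocon, from 953 ± 65.4 to 740.3 ± 39.9 CPM (-0.36 ± 0.05). Hk2 was at 625, 644, 637 and 621 CPM in WT and 509, 471, 472, 473 and 451 CPM in DKO, and fell (-0.41 ± 0.04). Pcbp1, encoding a poly(C)-binding protein, was lower as well (-0.18 ± 0.05), though its groups overlapped. Hnrnpa2b1, which encodes a nuclear RNA-binding protein, was at 475 ± 18.7 and 510.4 ± 42.8 CPM (0.10 ± 0.05) and did not pass.

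The most abundant distal genes rose by small amounts, with 2 exceptions. Phb2, encoding a prohibitin of the inner mitochondrial membrane, was at 1749, 1819.8, 1802 and 1743 CPM in WT and 2044, 2039, 2123, 1932 and 1993 CPM in DKO (0.19 ± 0.04). Fkbp4, encoding a co-chaperone of HSP90, went from 1012 ± 44.2 to 1161 ± 30.2 CPM (0.20 ± 0.04), and Emg1, encoding a methyltransferase of ribosome assembly, from 747 ± 48.7 to 882 ± 55.2 CPM (0.24 ± 0.05). Bms1, encoding a GTPase of ribosome assembly, rose by less (0.15 ± 0.05), a call lost without WT 1 (edgeR adjusted p = 0.0504). Chd4 did not pass, at 765 ± 22.6 and 752 ± 13.4 CPM, and Ybx3, encoding a cold-shock domain protein, fell from 739 ± 34.8 to 651 ± 34.8 CPM (-0.18 ± 0.05). All 4 that rose had every DKO library above every WT library.

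**Figure D4:**
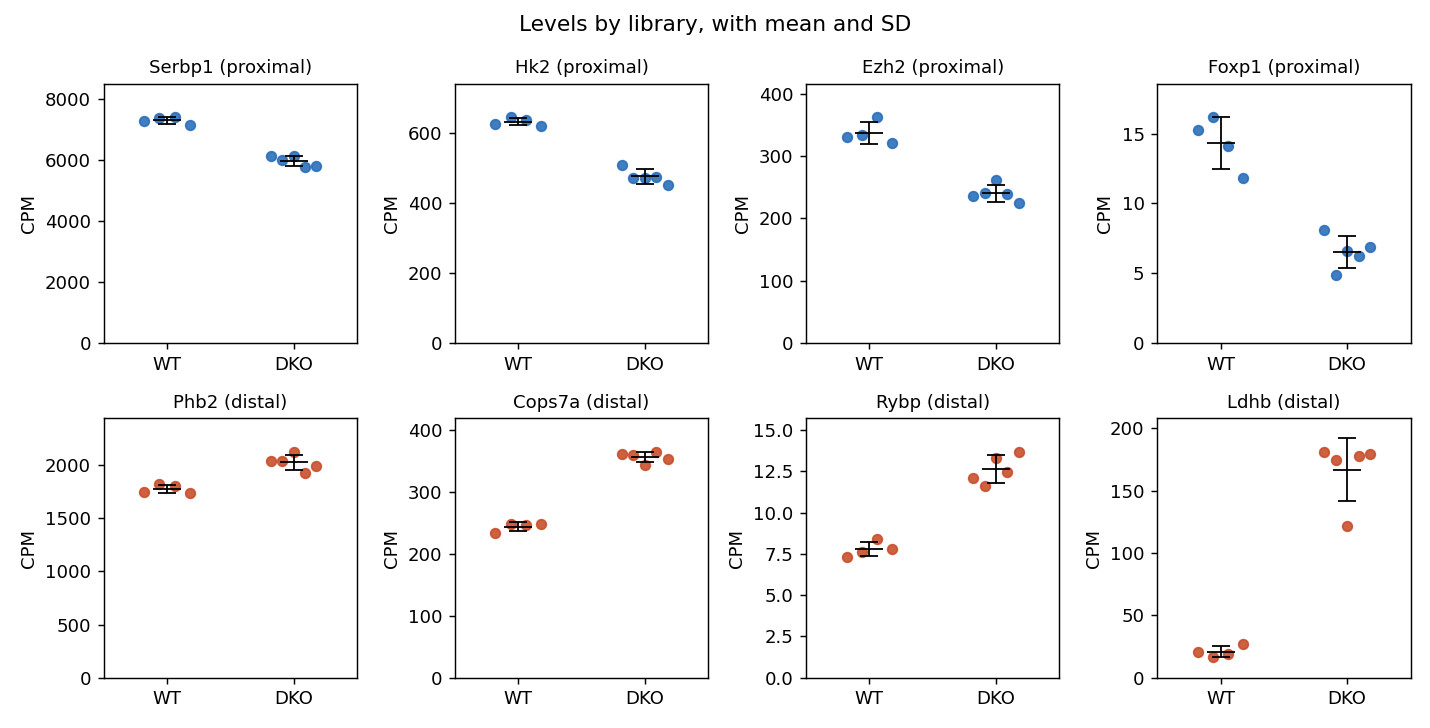
CPM on the y axis, from 0, in the WT and DKO libraries on the x axis, for 4 proximal members (Serbp1, Hk2, Ezh2 and Foxp1) and 4 distal members (Phb2, Cops7a, Rybp and Ldhb), with 1 point per library and black bars for the mean ± SD. All 5 DKO points lie below the 4 WT points for each of the 4 proximal genes, and higher than the WT points for each of the 4 distal genes. These genes were picked by hand and do not stand for all members. The groups overlapped for 112 of 229 proximal and 53 of 153 distal members. In 24 proximal members all DKO values were above WT, and in 8 distal members all were below.

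The largest falls were proximal. Reep1, encoding a protein that shapes the endoplasmic reticulum, was at 30.2, 25.2, 22.9 and 29.7 CPM in WT and 3.44, 4.86, 4.10, 2.53 and 2.98 CPM in DKO (-2.90 ± 0.16). Slc41a3, of a magnesium transporter family, was at 27.8, 26.5, 22.6 and 26.8 CPM in WT and 9.12, 4.86, 3.28, 4.22 and 5.50 CPM in DKO (-2.25 ± 0.17). The homeobox gene Tlx2 was at 29.3, 19.2, 27.03 and 20.6 CPM in WT and 5.38, 4.86, 10.01, 2.36 and 4.24 CPM in DKO (-2.16 ± 0.26). For all 3 genes the highest DKO value was well below the lowest WT value. Repin1, a zinc-finger gene (-1.74), Slc4a5, a bicarbonate transporter gene (-1.23), and Foxp1 made up the 6 largest proximal falls.

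Rises in the proximal stretch went up to 1.68 on the log2 scale. Gadd45a, a stress-response gene and a target of p53, was at 5.53, 5.18, 5.29 and 4.69 CPM in WT and 16.3, 19.6, 14.3, 15.7 and 17.3 CPM in DKO (1.68 ± 0.15). Cald1, encoding the actin-binding protein caldesmon (1.19), and the ubiquitin ligase gene Herc3 (1.11) were also among the 6 largest rises. So were Nod1, encoding a sensor of bacterial peptidoglycan (0.98), and the folate enzyme gene Aldh1l1 (0.98). Herc3 and Nod1 lie in the stretch from 50 to 70 Mb, where rises and falls were about as many.

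In the distal stretch the largest rise was that of Lrtm2, a gene for a leucine-rich repeat membrane protein. It had 1, 2, 9 and 3 counts over the WT libraries, against 107, 108, 85, 119 and 97 over the DKO libraries, with a fitted fold change of 4.84. Since 3 of the 4 WT libraries were at or under 3 counts, that value is imprecise, and it was 5.70 without WT 3, the library with 9 counts. Ldhb, whose enzyme subunit favours the conversion of lactate to pyruvate, was at 20.8, 16.6, 18.95 and 26.8 CPM in WT and 181, 174, 122, 178 and 179.8 CPM in DKO (3.001 ± 0.16), with DKO 3 lowest among the DKO libraries. Srgap3, encoding a GTPase-activating protein, was at 1.20, 2.90, 2.06 and 2.84 CPM in WT and 16.4, 13.9, 16.6, 19.1 and 20.6 CPM in DKO (2.93 ± 0.20). Gabarapl1, of the autophagosome, was at 11.1, 9.91, 10.3 and 8.38 CPM in WT and 52.5, 52.02, 47.3, 45.2 and 49.2 CPM in DKO (2.31 ± 0.10). The tetraspanin gene Tspan9 (1.68) and Klhl42, encoding an adaptor of a cullin ligase (1.53), were the next. In all of these every DKO library exceeded every WT library.

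The 10 distal members that fell went against the direction of most genes in their stretch. Bhlhe40, encoding a transcriptional repressor, was at 13.2, 8.69, 14.5 and 7.67 CPM in WT and 4.04, 5.01, 3.61, 4.22 and 5.34 CPM in DKO (-1.30 ± 0.20). Gprc5a, an orphan receptor gene (-1.13), Lrmp (-1.03), St8sia1, encoding the GD3 ganglioside synthase (-0.96), the alpha-tubulin gene Tuba3a (-0.92) and Rimklb (-0.91) were also among the 6 largest falls. Tuba3a has a near-identical copy, Tuba3b, on the same chromosome, and how reads of both were counted is not given in the sources used here. Rpusd3 (-0.30), Pianp (-0.55), Arhgdib (-0.62) and the RNA-binding gene Ybx3 (-0.18) were the other 4, of which Rpusd3, Pianp and Arhgdib are named after their values were seen. Of the 10, 6 were under 20 CPM on average.

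Members of 8 functional lists are given by their counts on each side of the division. The lists were chosen with earlier results of these data known, and their counts stand beside the shares over whole stretches, where 51.1% of proximal members were lower and 73.2% of distal members higher. Among Polycomb and chromatin genes, 5 of 6 proximal members fell and 1 rose (median -0.31), while 10 of 12 distal members rose and none fell (median 0.30). Ezh2 was at 330.1, 333, 362 and 320.4 CPM in WT and 236, 241, 262, 239 and 225 CPM in DKO (-0.48 ± 0.05). Cbx3, encoding heterochromatin protein HP1 gamma, fell (-0.32), as did Trim24 (-0.19), and Ruvbl1, encoding a helicase of chromatin remodellers, was the 1 that rose (0.22), a call lost without WT 1 (edgeR adjusted p = 0.107). On the distal side Phc1, of Polycomb repressive complex 1 (0.30 ± 0.05), and Setd5 (0.30 ± 0.07) rose beside Rybp. Chd4, the remodeller of the NuRD complex and 1 of the most abundant members of the list, did not pass (-0.03 ± 0.04). The list also holds Brk1 (0.20), whose product is known as a subunit of the actin-regulating WAVE complex.

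For MAPK and receptor signalling, 9 of 12 distal members rose and none fell (median 0.36), and 2 of 4 proximal members fell and none rose (median -0.25). The kinase gene Braf, on the proximal side, was at 33.1, 34.2, 35.7 and 37.4 CPM in WT and 27.2, 28.2, 30.2, 24.8 and 23.4 CPM in DKO, and fell (-0.39 ± 0.09). Every DKO library was below every WT library for it. On the distal side Dusp16, encoding a phosphatase of MAP kinases, was at 40.99, 38.1, 43.8 and 34.7 CPM in WT and 64.9, 54.1, 80.4, 62.4 and 56.4 CPM in DKO, and rose (0.69 ± 0.10). Lrp6, encoding a Wnt co-receptor, rose as well (0.35), and Mob1a, of the Hippo pathway, fell (-0.35). Plxna1 (0.01) and Hipk2 (-0.15) did not pass.

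In DNA repair, replication and mitosis 8 of 10 distal members rose and none fell (median 0.42), and 4 of 6 proximal members fell and none rose (median -0.29). Ncapd2, encoding a condensin subunit, was at 392, 432, 404 and 413 CPM in WT and 515, 532, 555, 555 and 539 CPM in DKO (0.39 ± 0.05). Cdca3, of mitotic entry, was at 172 ± 6.49 and 257 ± 6.96 CPM (0.57 ± 0.05), and Rad51ap1, of recombination repair, rose as well (0.49). Rhno1 did not pass (0.14). On the proximal side Pole4, encoding a small subunit of DNA polymerase epsilon, fell (-0.41 ± 0.06). Tax1bp1, which also fell (-0.27), is better known as an autophagy receptor, and Mkrn1 (-0.08) and the nuclear pore gene Nup210 (0.08) did not pass.

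Carbon metabolism had 4 of 5 distal members higher and none lower (median 0.29), and 2 of 5 proximal members lower and none higher (median -0.15). Besides Ldhb, the glycolytic gene Tpi1 was at 191, 204, 192 and 214 CPM in WT and 198, 226, 212, 226 and 242 CPM in DKO (0.14 ± 0.06), values that overlapped. This call was lost with DESeq2 (adjusted p = 0.0832), with replicate number added as a block (edgeR adjusted p = 0.0842) and without any 1 of WT 1, 2 or 3 or DKO 2, 4 or 5 (edgeR adjusted p = 0.0583 to 0.143). Bcat1, of branched-chain amino acid breakdown (0.29), and the aldolase gene Dera (0.50) rose, and Tigar did not pass (0.06). Proximally Hk2 fell, as did Mat2a, encoding the synthase of S-adenosylmethionine (-0.15). The call of Mat2a was lost without WT 1, which at 570.4 CPM stood apart from the other WT libraries (edgeR adjusted p = 0.213), and without DKO 2 (0.0561) or DKO 4 (0.0687). Suclg1 (-0.10) and Gfpt1 (-0.005) did not pass. Gapdh, also distal, had 12 to 42 counts per library, under 5 CPM, and is no member.

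The secretory pathway and organelles had all 8 distal members higher (median 0.33) and 8 of 11 proximal members lower with none higher (median -0.27). Sec13, encoding a coat protein of COPII vesicles, rose (0.24 ± 0.07), as did M6pr, encoding a receptor that sorts lysosomal enzymes (0.52 ± 0.06), and Ergic2 (0.47). Arpc4 (0.23) is on this list, though it encodes a subunit of the actin-nucleating Arp2/3 complex. Beside Sec61a1, the oligosaccharyltransferase gene Rpn1 (-0.23 ± 0.04), Calu (-0.28) and Chchd4, of import into the mitochondrial intermembrane space (-0.19), fell.

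For apoptosis and protein turnover 10 of 11 distal members rose and none fell (median 0.35), and 3 of 5 proximal members fell and none rose (median -0.46). Cops7a, encoding a subunit of the COP9 signalosome, was at 234, 248, 247 and 247 CPM in WT and 361, 359.9, 343, 364 and 353 CPM in DKO (0.55 ± 0.05). The deubiquitinase gene Usp5 (0.20) rose too, beside Phb2 and Fkbp4. Uba3, encoding the catalytic subunit of the NEDD8-activating enzyme, was at 45.9, 40.3, 40.3 and 46.2 CPM in WT and 32.9, 32.7, 29.7, 23.96 and 32.8 CPM in DKO (-0.50 ± 0.09). The mitochondrial protease gene Htra2 (-0.70) and Gmcl1 (-0.46) fell, and Rmnd5a did not pass (-0.01).

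RNA processing and translation had the smallest distance between the distal and proximal medians of the 8 lists. Of 10 distal members 7 rose and 1, Ybx3, fell (median 0.23), and of 10 proximal members 2 fell, none rose and 8 did not pass (median -0.05). Emg1 (0.24) and Bms1 (0.15), both of ribosome assembly, and the splicing-related gene Wbp11 (0.35) rose. Igf2bp3, encoding a messenger RNA-binding protein (-0.22), and Lsm3, encoding a subunit of a ring on a spliceosomal RNA (-0.28), fell, and Dusp11 did not pass (-0.003).

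Developmental transcription factors were the list in which distal members did not mostly rise. Of 25 genes fixed, 5 were proximal and 4 distal members, and none of the 11 Hoxa rows reached 5 CPM, the highest mean being 2.27 CPM. Of the proximal members 4 fell and none rose (median -0.83), namely Tlx2, Foxp1, Mitf and Gata2 (-0.68), while Mxd1 did not pass (0.32). Gata2, at a mean of 5.04 CPM, lies just inside the level for membership. On the distal side Bhlhe40 fell and Etv6 (-0.11) and Foxj2 (-0.18) did not pass, with a median of -0.14. The 1 that rose was Gdf3 (0.35 ± 0.05), which encodes a TGF-beta family ligand and no transcription factor.

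**Figure D5:**
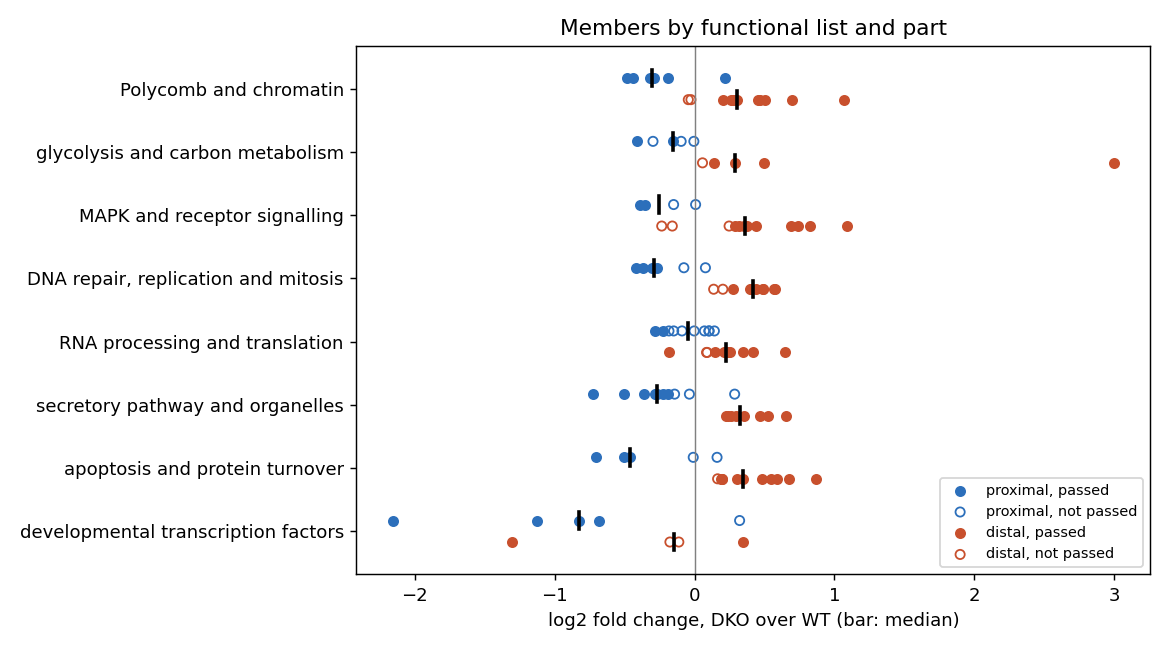
Log2 fold change of DKO over WT on the x axis for the members of 8 functional lists, listed on the y axis, 1 point per gene (filled where it passed, open where it did not), black bars for medians and separate colours for proximal and distal members. Distal medians are above the proximal medians in all 8 lists, and below 0 for developmental transcription factors alone.

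The size of the difference varied little with expression level or strand. Members were split into 3 groups of about equal size by mean CPM over all 9 libraries. That level is not free of the difference between DKO and WT. The distal median log2 fold change was 0.37 in the lowest group, 0.36 in the middle and 0.30 in the highest. The proximal median was -0.19, -0.19 and -0.22 in the same order. The distance between quartiles for distal members narrowed from 0.54 to 0.38 and 0.28 over the same groups. Genes on the plus and minus strands gave 0.35 and 0.35 distally, and -0.20 and -0.21 proximally.

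In features other than the fold change, the stretches were alike in some and unlike in others. Members start at a median spacing of 137 kb proximally and 96.4 kb distally, or 2.38 and 3.11 members per Mb. Median gene length was 30.7 kb for proximal, 28.2 kb for distal and 24.9 kb for the other protein-coding genes. Median CPM was 36.0, 45.2 and 35.7 in the same order, taken over all 9 libraries and so not free of the difference between DKO and WT. Over the WT libraries alone it was 37.8, 39.4 and 35.3. The SD of log2(CPM + 1) between WT libraries had a median over genes of 0.107, 0.114 and 0.110, and between DKO libraries of 0.127, 0.113 and 0.127. Promoter windows were matched for 202 of 229 proximal members (88.2%) and 118 of 153 distal members (77.1%). Because fewer than 80% of distal members had a window, a comparison of promoter base content or of motif shares with the distal stretch is void, and none is given. Median GC content was 60.6% for the matched proximal promoters and 60.8% for those of the other genes.

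Genes left out by name gave medians of the same sign as the members. They lie in the same stretches, divided by fold changes of these libraries, so that their values too are a description. Single genes went both ways, with 5 of the 23 proximal and 13 of the 15 distal ones positive, the distal ones from -4.20 to 4.71. The 23 proximal genes left out by name had a median log2 fold change of -0.21, with 3 higher and 12 lower, and the 15 distal ones 0.54, with 12 higher and 1 lower. Members nearest to the level of 5 CPM were Il17ra (5.03), Gata2 (5.04) and Fam221a (5.09) on the inside and Prmt8 (4.98), Rerg (4.84) and Amn1 (4.75) on the outside. Elsewhere in the genome the medians of the 18 other chromosomes, each taken whole and without chromosome 8 and Y, lay between -0.02 and 0.09. Chromosome 6 taken whole gave 0.05, within that range. Whether any of the 18 holds opposed stretches was not examined. Chromosome 8 taken whole gave -0.24, with 0.42 for 235 genes before Klf2 and -0.61 for 294 genes after it.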

How the data were processed

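The file deposited by the authors holds raw exon counts, whole numbers per gene, of 9 libraries (4 WT and 5 DKO) of V6.5 embryonic stem cells. Per the labels' protocols, Trizol RNA (600 ng per library) entered the forward QuantSeq kit, which reads transcripts near their 3′ ends, so that gene length plays little part. Cutadapt, STAR, featureCounts and DESeq2 are the tools, and mm10 the build, named in the submitters' processing notes, without versions or roles. Not given in the sources used here are the annotation release, strand setting and treatment of multi-mapped reads, so that reads of gene copies and overlapping genes may be shared or lost.

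Of 52550 identifiers, 52403 matched GENCODE mouse release M21 and 147 did not. Genes were kept with filterByExpr by group, scaled by TMM and tested with edgeR 4.0.16 (robust quasi-likelihood, R 4.3.3) over all 9 libraries with genotype as the single factor. Adjustment was by Benjamini-Hochberg over 11893 genes, with a threshold of 0.05. The script was also run on simulated counts, in which a far smaller share of genes was changed than the 47.8% called here. That run therefore does not bear on scaling or calls where so many genes differ. The SE is the fold change divided by the square root of F. Library totals are given in the report, and 3 counts were taken as the floor, which covers counting error only. The 16 pairs of libraries within a group gave a chi-square per degree of freedom of 2.22 to 4.98, so that none looked like 1 library counted again.

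The members and lists were chosen with earlier results of these data known. Named genes were the 5 nearest the division on each side, the 6 largest rises and falls without overlap between groups in each stretch, the 6 most abundant, and up to 4 of highest CPM per list. A few of them are not reported here. Alternatives were DESeq2 1.42.0, other scalings, filters and membership levels, a replicate block, and leaving out each library. Promoters were read from the RefSeq table.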

Additional observations from a re-analysis of the deposited data

Results flagged for a closer look

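The values of each of the 96 named members, and the proximal median, the distal median and their difference, were examined within WT and within DKO for 1 library standing far from the rest, by the gap to its nearest neighbour relative to the whole range. Of these 198 groups of values 11 stood out, all of single genes, at a limit that chance passes in about 1 group in 20. WT 1 was the library concerned for 3 of them, DKO 3 for 3 and DKO 4 for 2.

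In WT 1, Mat2a was at 570.4 CPM against 462 to 480.0 in the other WT libraries, Ruvbl1 at 43.4 against 51.4 to 52.5, and Cops7a at 234 against 247 to 248. Dusp11 was at 93.0 CPM in WT 2 against 83.6 to 84.8, and Sec13 at 101 CPM in WT 3 against 124 to 126.

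In DKO 3, Ldhb was at 122 CPM against 174 to 181 in the other DKO libraries, Setd5 at 331 against 403 to 432, and Sec61a1 at 811 against 714 to 728. DKO 4 gave 57.9 CPM for Nod1 against 47.6 to 50.2, and 242 CPM for Gdf3 against 214 to 222. Foxj2 was at 13.8 CPM in DKO 2 against 10.5 to 11.3.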

How the results depend on the processing

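With DESeq2, 102 distal members were higher and 10 lower, and 26 proximal members were higher and 108 lower. Restricting members to a mean of at least 20 CPM, which leaves 155 proximal and 105 distal genes, gave 18 proximal genes higher and 4 distal genes lower. Taking in genes down to 1 CPM gave 17 distal genes lower, and a distal minus proximal difference of 0.515 in DKO against 0.546. Leaving out each library in turn gave a distal median of 0.33 to 0.36 and a proximal median of -0.22 to -0.21. In these fits 102 to 109 distal and 25 to 32 proximal members were higher, and 9 to 11 and 108 to 115 lower. The proximal median over all 9 libraries, -0.20, lay outside its range. So did the counts over all 9 libraries of 112 distal members higher and 117 proximal members lower. Other scalings moved the median of all genes tested from 0.008 to between 0.001 and 0.005. Same-numbered libraries deviated together only weakly (r = 0.07, 0.01, 0.07 and 0.03 for numbers 1 to 4, none over 0.1), with 3 of 4 WT and 4 of 4 DKO libraries correlating best with their own number, which is a hint from the data and not from the labels. They were not treated as pairs. A replicate block over these numbers, without DKO 5, gave medians of 0.35 and -0.21, with 109 distal and 28 proximal members higher and 11 and 116 lower.

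Of 96 named members 77 were called. None of these changed direction in any of 13 alternatives, and 4 lost the call in at least 1 (Mat2a, Ruvbl1, Bms1 and Tpi1). Of those that did not pass, Hnrnpa2b1, Suclg1, Mxd1 and Shq1 gained a call with 1 library left out. With 1 library left out, 5 more changed sign: Rmnd5a (-0.0582 to 0.0564), Dusp11 (-0.0215 to 0.0292), Gfpt1 (-0.0345 to 0.0208), Plxna1 (-0.0291 to 0.0638) and Frmd4b (-0.0825 to 0.0277). The cause was not tested. At this depth genes of few counts, such as Lrtm2 in WT, have imprecise fold changes.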

Other observations

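Protein-coding rows of chromosome 6 that had counts but too few to be tested enter no comparison above. Summed, the proximal ones were at 60.0 ± 5.57 counts per 1000000 counts of the library in WT (SD, n = 4; 54.1 to 67.5) and 50.7 ± 7.03 in DKO (SD, n = 5; 40.1 to 58.8). The distal ones were at 24.4 ± 2.66 (22.1 to 28.2) in WT and 26.3 ± 1.32 (24.3 to 27.9) in DKO. In both stretches the groups overlapped.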
